A study of Homo sapiens with 4 samples.

Results

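The genes described here encode the proteins of the cytosolic ribosome. They were taken as every gene whose symbol is RPL or RPS followed by digits and at most 1 of the letters A, X or L, together with RPSA and the stalk genes RPLP0, RPLP1 and RPLP2. The deposited tables held 82 such genes of 20146 genes. Of these, 80 (33 of the small and 47 of the large subunit) reached 1 FPKM in at least 2 libraries, as did 12138 genes in all. FPKM gives the sequenced fragments of a transcript relative to its length and to the depth of the library, so levels can be set side by side between genes. The 2 genes below the filter were RPL10L, a copy of RPL10 known from testis, and RPL3L, a copy of RPL3 known from muscle. RPL10L was listed at 0.068 FPKM in control replicate 2 and at 0 in the other libraries. RPL3L had 0.055 and 0.216 FPKM in the control libraries and 0.022 and 0.103 FPKM in the knockdown libraries.

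RNA was sequenced from MDA-MB-231 cells, an established mesenchymal line from a triple-negative breast cancer, grown in L-15 medium with serum and antibiotics in every group. The labels put 2 libraries in a control group and 2 in a group with a knockdown of AURKA, which encodes the mitotic kinase Aurora A. The series title states the question as gene regulation by AURKA through transcription. Titles call the controls shC, while the design text calls them mock-transfected, and neither gives the vector or the time after its delivery. All libraries come from 1 cell line, and the p-values measure only the spread between these samples, which the design text calls biological replicates. Within a replicate number, the tables of both groups shared their row order, which differed between the numbers. Their content differed by number as well. Each number listed 81 transcripts that the other lacked. A further 1707 transcripts, 13 of them from ribosomal protein genes, were listed under both numbers but at differing loci. What this adds to the differences between the replicates was not tested. The 2 numbers are called runs below, as a short name only that stands for no known sequencing run. No label or header names a batch, so what a number marks beyond this is not known.

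The ribosome is built from a small subunit, which reads the messenger RNA, and a large subunit, which joins amino acids. Each subunit needs 1 copy of nearly all of its proteins, while the stalk of the large subunit carries several copies of RPLP1 and RPLP2. Messenger RNAs for ribosomal proteins are among the most abundant in growing cells, and most begin with a terminal oligopyrimidine tract (TOP), a C at the first base followed by a run of C and T. Through this tract the kinase complex mTORC1 and the RNA-binding protein LARP1 control their translation and stability as a group.

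The first bases of the genes were read from RefSeq start sites (build GRCh38.p14), because the tract is the feature these messages are best known to share. A start window, 10 bases before to 20 bases from the annotated start, was read for 63 of the 80 genes, in 78 windows. The remaining genes had no usable entry or lay on a chromosome that was left out of this reading. A TOP start was counted where the first base was C and at least 4 further bases of C or T followed, on the strand of the gene only. At least 1 window of 46 of the 63 genes (73.0%) had such a start. Counted by window the share was 59.0%, against 4.07% of 35116 windows of all genes in the same table. The windows below are those of genes on which the results turn, with the tract in capitals. RPS21 (chr20:62387093-62387122, plus strand) and RPL41 (chr12:56116623-56116652, plus) were among the most abundant. RPL31 (chr2:101002279-101002308, plus) and RPL36A (chrX:101391001-101391030, plus) were among the genes with the lowest knockdown values relative to control. RPLP2 (chr11:809957-809986, plus) differed between the runs.
RPS21: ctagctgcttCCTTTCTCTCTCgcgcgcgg
RPL41: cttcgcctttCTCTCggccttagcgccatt
RPL31: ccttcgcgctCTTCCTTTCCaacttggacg
RPL36A: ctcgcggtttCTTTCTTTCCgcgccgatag
RPLP2: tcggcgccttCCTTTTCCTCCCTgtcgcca

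A further 17 genes had no window with a tract at the annotated start, among them RPL9, RPS26, RPS28 and RPS29, shown because they stood at the ends of the comparisons below. Their windows lie at chr4:39458903-39458932 (minus strand), chr12:56041908-56041937 (plus), chr19:8321486-8321515 (plus) and chr14:49598691-49598720 (minus). The absence of a match says only that these letters do not stand at that base.
RPL9: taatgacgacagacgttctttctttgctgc
RPS26: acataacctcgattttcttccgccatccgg
RPS28: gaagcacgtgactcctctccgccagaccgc
RPS29: agcgcgcagctggcagcggtggttgtttct

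Ribosomal protein messages were abundant in all 4 libraries. They made up 57 of the 100 genes with the highest mean FPKM. The median of their mean levels was 1333 FPKM (1400 for the small and 1300 for the large subunit), against 15.2 FPKM for all 12138 genes. Levels were not uniform: 8 genes lay above 3000 FPKM, 53 between 1000 and 3000, 14 between 500 and 1000 and 5 below 500.

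RPS21, a small protein of the 40S subunit, had the highest mean, with 8231 and 6128 FPKM in the control libraries (replicates 1 and 2) and 7536 and 4949 FPKM in the knockdown replicates. RPS29, a zinc-binding protein of the small subunit, followed with 6634 and 4639 FPKM against 7631 and 4653 FPKM. In both genes the replicate 1 library of each group was the higher one, and the groups overlapped. RPS27, another zinc-binding protein of the small subunit, had 5195 and 6603 FPKM in the control libraries and 5295 and 5086 FPKM in the knockdown libraries. RPL41, the smallest protein of the ribosome, had 4654 and 4986 FPKM against 5095 and 4558 FPKM. RPL37A had 3324 to 3801 FPKM and RPL26 2872 to 4124 FPKM, each over the 4 libraries. In none of these 6 genes did the control and knockdown libraries separate.

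**Figure D1:**
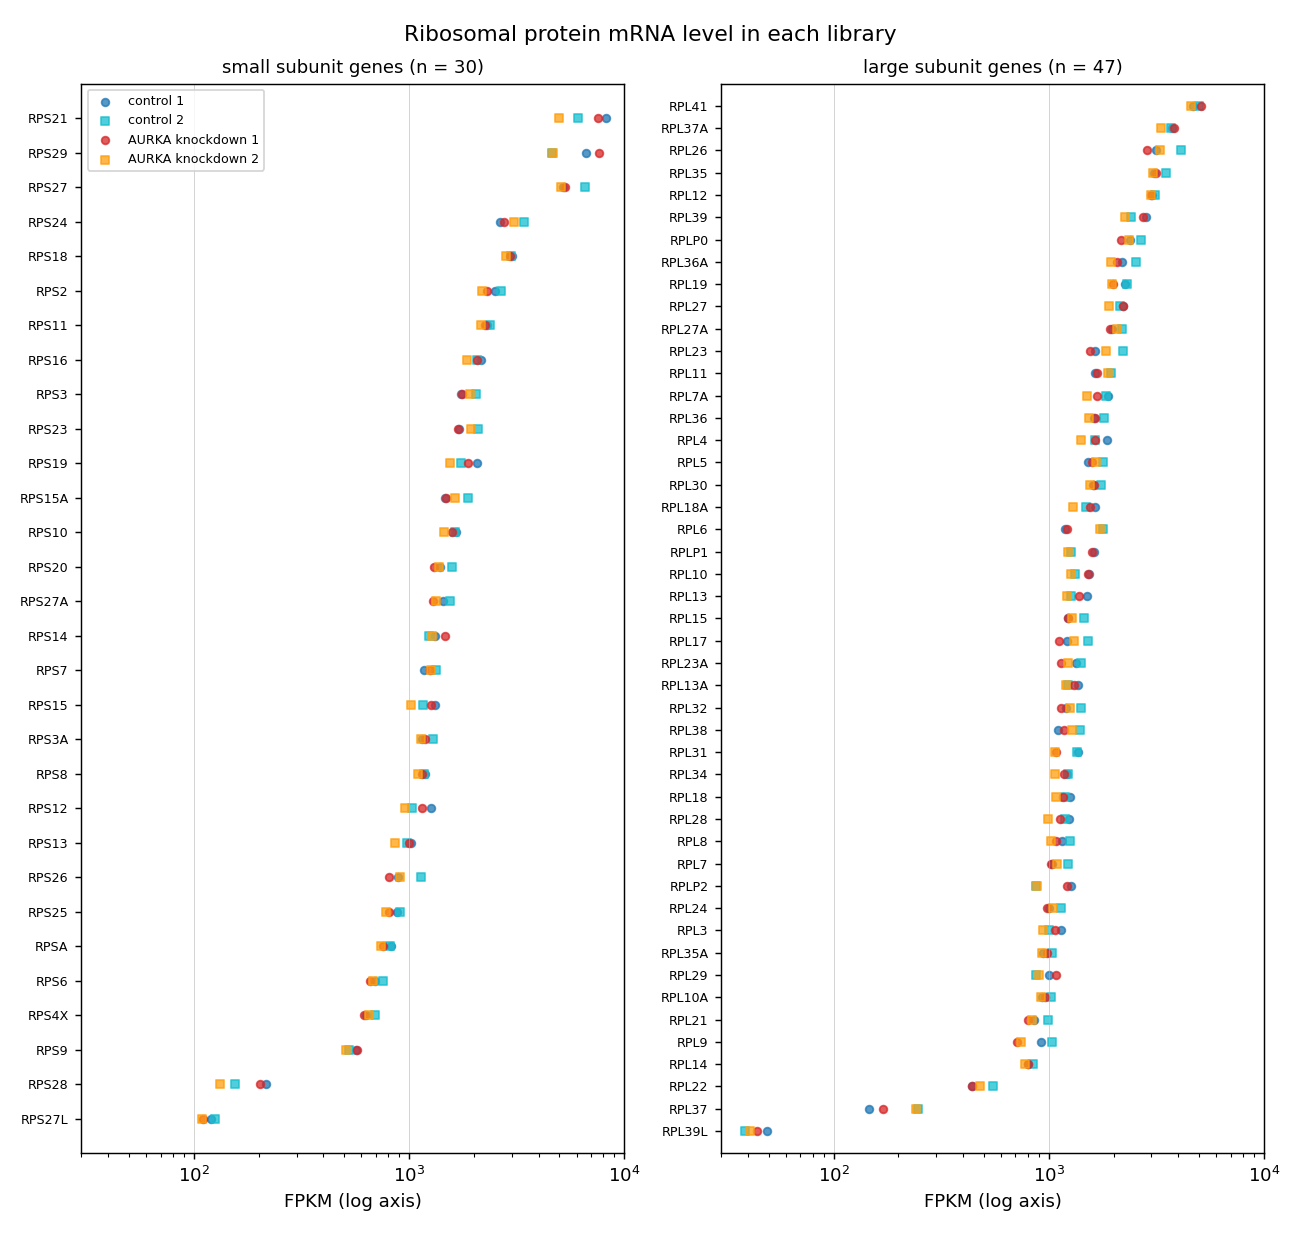
Level of 77 of the 80 ribosomal protein genes in each library, in FPKM on a log axis, with small subunit genes on the left and large subunit genes on the right, ordered by mean. Points are single libraries (circles replicate 1, squares replicate 2), and most genes lie between 500 and 3000 FPKM while 5 lie below 500.

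The 5 genes with the lowest FPKM were RPL39L, RPS27L, RPS28, RPL37 and RPL22. RPL39L, a copy of RPL39 with its highest known level in testis, had 49.1 and 38.7 FPKM in the control libraries and 43.8 and 40.7 FPKM in the knockdown libraries. RPL39 itself, which lines the exit tunnel of the large subunit, had 2814 and 2410 FPKM against 2729 and 2257 FPKM. RPS27L, a copy of RPS27, had 121 and 126 FPKM against 111 and 109 FPKM, so that both knockdown libraries lay below both controls. The copies were thus far below their partners in every library, and RPL3 (942 to 1145 FPKM) and RPL10 (1271 to 1543 FPKM) likewise stood far above RPL3L and RPL10L.

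RPS28 and RPL37, of the small and the large subunit, had low FPKM for their class. RPS28 had 215 and 155 FPKM in the control libraries and 203 and 132 FPKM in the knockdown libraries. Only 1 transcript of RPS28 was listed, of 1326 bases, where the median leading transcript of the 80 genes had 644. It also shares its locus with KANK3. FPKM depends on the length used, and the part of this in the low RPS28 value was not tested. RPL37 had 147 and 248 FPKM against 170 and 242 FPKM. RPL22, a large subunit protein that binds small viral and cellular RNAs, had 441 and 550 FPKM against 441 and 478 FPKM.

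Ribosomal protein genes have many processed pseudogenes and some near-identical copies, and how the authors' program divided reads between them was not given in the sources used here. A total of 21 of the 80 genes share a locus with another gene in the table of control replicate 1, among them RPL36A with HNRNPH2 and RPL31 with TBC1D8. The median log2 difference, knockdown minus control, of these 21 genes was -0.12, with all 21 below 0. The other 59 genes had a median of -0.08, with 53 below 0, and the gap between these medians was not tested. Strandedness is not stated, so reads of overlapping genes cannot be told apart.

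Summed FPKM per library ran from 718978 to 761641, and read totals were not used here. AURKA had 124 and 99.1 FPKM in the control libraries and 22.3 and 23.7 FPKM in the knockdown libraries, so the libraries match their labels. Markers of the line were present, with VIM at 1701 to 2068 FPKM, CD44 at 212 to 233 and AXL at 227 to 318. ESR1, PGR and CDH1 were at most 0.271 FPKM and EPCAM was at 2.49 to 3.30 FPKM. Of the markers of blood and endothelial cells, PTPRC was at most 0.012 FPKM, CD3E was listed at 0 in every library, CD14 was at most 0.355 FPKM and CDH5 at most 0.112 FPKM.

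Ribosomal protein genes held a slightly smaller share of all FPKM in the knockdown libraries libraries. The share was 18.9% and 18.5% in replicates 1 and 2 of the controls and 17.8% and 17.4% in those of the knockdown (18.7% ± 0.33 and 17.6% ± 0.27, SD, n = 2 each). Both knockdown libraries lay below both controls, and the difference in percentage points was -1.17 in run 1 and -1.09 in run 2. A two-sided exact permutation test gave p = 0.33, the smallest value that 2 libraries against 2 can give, so this design cannot place the difference past a threshold of 0.05. In bulk RNA, fewer cells of a type and less RNA per cell cannot be told apart.

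Large subunit genes held 10.41% and 10.42% of FPKM in the control libraries and 9.71% and 9.80% in the knockdown, without overlap (exact permutation p = 0.33). Small subunit genes held 8.52% and 8.05% against 8.06% and 7.58%, and here knockdown replicate 1 lay just above control replicate 2 (exact permutation p = 0.667). Within the ribosomal protein total, the small subunit took 45.0% and 45.4% in the replicate 1 libraries and 43.6% in both replicate 2 libraries. This share thus went with the run and not the group. It is a sum in which the most abundant genes weigh most. RPS21 had 8231 and 7536 FPKM in the replicate 1 libraries of control and knockdown and 6128 and 4949 FPKM in replicate 2. RPS29 had 6634 and 7631 FPKM against 4639 and 4653 FPKM. The median log2 difference, replicate 2 minus replicate 1, was -0.003 over the small and 0.03 over the large subunit genes. The share therefore does not show a shift of the small subunit genes as a whole.

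Mitochondrially encoded genes, which share the denominator, held 16.0% and 17.6% of FPKM in the control libraries and 19.0% and 17.03% in the knockdown. With these genes left out of the denominator, the ribosomal protein share was 22.5% and 22.4% in the controls and 21.9% and 21.0% in the knockdown, a difference of -1.04 percentage points that kept the groups apart.

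**Figure D2:**
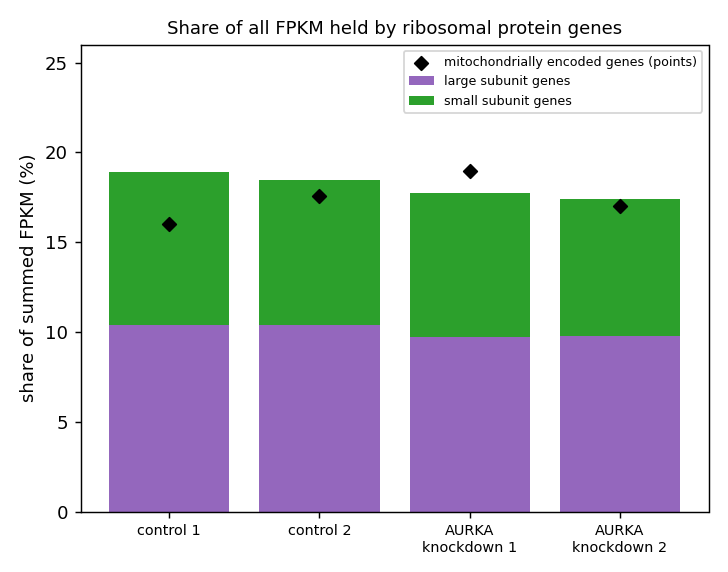
Share of summed FPKM held by large and small subunit genes (stacked bars, in %) in each of the 4 libraries, with the share of mitochondrially encoded genes as points. The bars reach 18.9% and 18.5% in the controls and 17.8% and 17.4% in the knockdown.

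Gene by gene, the knockdown values lay a little below the controls for most ribosomal protein genes, and no gene passed the test. The mean log2 difference, knockdown minus control, was below 0 in 74 of the 80 genes (92.5%), against 47.7% of all tested genes. It was below 0 in both runs in 54 genes (67.5%, against 31.7% of all genes) and above 0 in both runs in 3 genes (3.75%, against 35.3%). Both knockdown libraries lay below both controls in 26 genes (32.5%, against 16.6%), 12 of the small and 14 of the large subunit. In 0 of the 80 genes did both lie above, against 19.4% of all genes. These counts are descriptions, since the genes share their libraries and scaling.

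The median log2 difference was -0.10, a change of -6.45%, against a median of 0.01 over all genes. It was -0.06 in run 1 and -0.16 in run 2, where all genes had medians of -0.01 and 0.03. Both subunits had a median near this value, -0.11 for the small and -0.09 for the large subunit. The differences lay close together, with an SD over genes of 0.09 against 0.27 for all genes, and ran from -0.43 to 0.10. The 16 other genes with known TOP messages, described below, had an SD of 0.07. No set of genes of like level was compared, so the narrow spread is not shown to be particular to ribosomal protein genes. Without control replicate 2 the median of the 80 genes was -0.06 and 55 of them lay below 0. Scaling to a fixed total without mitochondrial genes gave a median of -0.06 with 68 genes below 0, while the median of all genes moved to 0.04.

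Limma called 0 of the 80 genes and 0% of the 12138 tested genes in this comparison (Benjamini-Hochberg adjusted p under 0.05). The smallest adjusted p among the 80 genes was 0.619, and 2 of them, both lower, had an unadjusted p under 0.05, as had 777 of all genes. With the run as a term in limma, again 0 of the 80 genes were called, against 3.52% of all genes, and 3 (against 22.1% of all genes) had an unadjusted p under 0.05. The smallest adjusted p in that fit was 0.0596, against 0.478 to 0.9999 over the other alternatives. A p above the threshold does not show that the levels were equal.

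RPL9, a protein of the large subunit near the base of the stalk, had the lowest difference. Its gene (ENSG00000163682, chromosome 4, 39455743 to 39460568 in the GRCh37 coordinates of the files) had 923 and 1034 FPKM in the control libraries and 712 and 742 FPKM in the knockdown libraries. Both knockdown libraries were below both controls. On the log2 scale the difference was -0.43 (standard error 0.13, 25.7% lower), and the limma adjusted p was 0.619, or 0.0596 with the run as a term. RPL31, which lies at the rim of the exit tunnel, had 1370 and 1346 FPKM against 1080 and 1066 FPKM. The gap between its groups was wider than the spread within them, at -0.34 on the log2 scale (standard error 0.12), with a limma adjusted p of 0.713 (0.110 with the run as a term). It shares its annotated locus with TBC1D8.

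RPL36A, a large subunit protein at the exit site for transfer RNA, had 2183 and 2554 FPKM in the control libraries and 2063 and 1943 FPKM in the knockdown libraries (log2 difference -0.24), without overlap. RPS26, which contacts the messenger RNA where it leaves the small subunit, had 890 and 1142 FPKM against 809 and 908 FPKM (-0.23), and its groups overlapped. The genes with the lowest differences thus came from both subunits.

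At the upper end stood RPS29, RPS14, RPL37, RPL29 and RPS7, with log2 differences from 0.02 to 0.10. RPS14, a protein of the platform of the small subunit, had 1320 and 1232 FPKM in the control libraries and 1462 and 1283 FPKM in the knockdown libraries. RPL29, a basic protein of the large subunit, had 1004 and 875 FPKM against 1076 and 902 FPKM. In both, the groups overlapped. RPS7, a small subunit protein that also binds MDM2, had 1172 and 1329 FPKM against 1255 and 1268 FPKM. Leaving out single libraries turned the sign of RPL37, RPS7, RPL29 and RPS29, but such a fit also takes in the difference between the runs. Within runs 1 and 2 the difference was 0.10 and 0.04 for RPL29 and 0.20 and 0.004 for RPS29. It was 0.21 and -0.03 for RPL37 and 0.10 and -0.07 for RPS7, which thus had no common sign. None of these genes was called.

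A further 3 genes are named for their role, with values already seen. RPL5 and RPL11, which with 5S ribosomal RNA bind MDM2, had 1516 and 1785 FPKM (RPL5) and 1633 and 1938 FPKM (RPL11) in the controls. In the knockdown they had 1579 and 1665 FPKM and 1666 and 1881 FPKM, inside the control range for both. RPS6, the target of S6 kinase, had 691 and 757 FPKM against 657 and 683 FPKM, with both knockdown libraries below both controls.

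The medians were close for both kinds of start site, with no test of their difference. Genes with a TOP start had a median log2 difference of -0.09 (n = 46), and those without one had -0.12 (n = 17). Across the 80 genes the difference in run 1 and that in run 2, which share no library, had a Pearson correlation of 0.49, close to 0.48 over all 12138 genes. The points of a gene share its base composition and annotation, so this is a description.

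**Figure D3:**
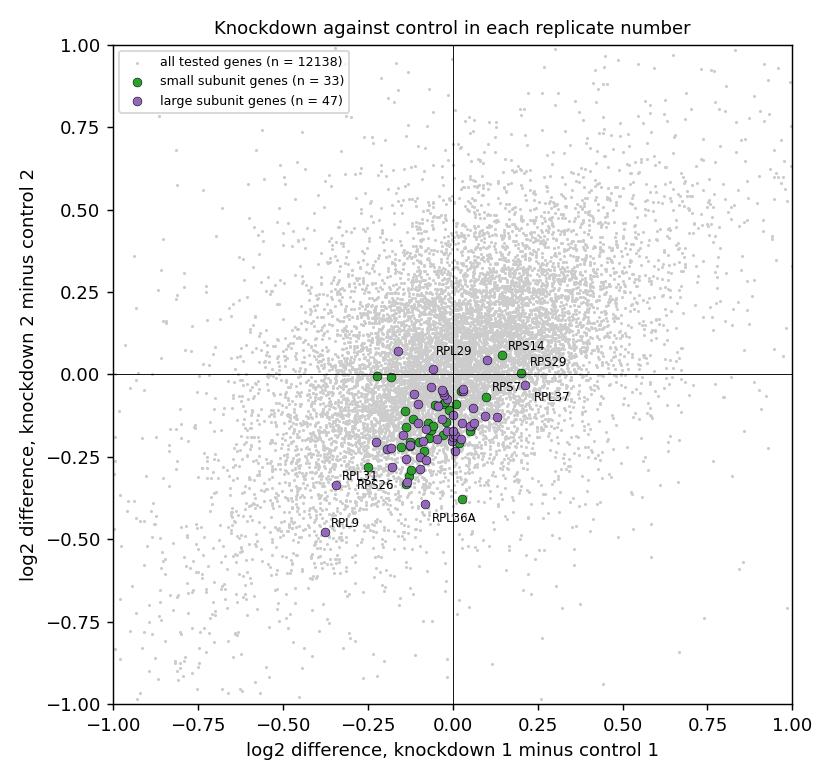
Log2 difference between knockdown and control in run 1 (x axis) and run 2 (y axis) for small subunit genes (green), large subunit genes (purple) and all 12138 tested genes (grey), with both axes ending at 1 in each direction. Of the 80 ribosomal protein genes, 54 lie below 0 on both axes and 3 above 0 on both, and RPL9 is at -0.37 and -0.48.

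The ribosomal protein genes spread more widely between the replicates than between the groups. The SD over genes of the log2 difference, replicate 2 minus replicate 1, was 0.23, against 0.09 for knockdown minus control. Over all genes the SDs ran the same way, at 0.33 and 0.27, so the direction is not particular to these genes. The gap between the 2 SDs was larger in the ribosomal protein genes. The difference exceeded 0.3 in size in 10 of the 80 genes between the replicates and in 2 between the groups, against 3742 and 2289 of all 12138 genes. The median was 0.02 (0.08 in the controls and -0.06 in the knockdown), against -0.06 for all genes. Both replicate 2 libraries lay above both replicate 1 libraries in 23 genes (28.7%, against 20.5% of all genes) and below them in 22 genes (27.5%, against 32.7%).

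Limma called 0 of the 80 genes and 0% of all genes for replicate 2 against 1, with a smallest adjusted p of 0.141 among the 80. An unadjusted p under 0.05 was found for 11 of them (6 lower and 5 higher) and for 2348 of all genes. With the group as a term in limma, 7 of the 80 were called. Of these, 4 were higher in replicate 2, RPL37 and RPL6 among them, which is 5% of the 80 against 4.79% of all genes. RPS28, RPLP2 and RPS29 were lower, which is 3.75% against 9.26% of all genes. The shares called were thus near or below those of all genes, and no other alternative called any of the 80.

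RPL37, a zinc-binding protein of the large subunit, had 147 and 170 FPKM in the replicate 1 libraries of control and knockdown and 248 and 242 FPKM in the replicate 2 libraries. The 2 runs did not overlap, at 0.63 on the log2 scale (standard error 0.11). Its adjusted p was 0.141 in limma and 0.0143 with the group as a term, against 0.115 to 0.446 over the other alternatives. RPL6, a large subunit protein on the outer surface, had 1192 and 1218 FPKM in replicate 1 and 1780 and 1720 FPKM in replicate 2 (0.54; limma adjusted p 0.141, or 0.0244 with the group as a term). In RPL6 too the runs did not overlap.

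RPS29 had 6634 and 7631 FPKM in the replicate 1 libraries and 4639 and 4653 FPKM in the replicate 2 libraries, a log2 difference of -0.61 (limma adjusted p 0.143, or 0.0430 with the group as a term). RPS28, near the path by which messenger RNA leaves the small subunit, had 215 and 203 FPKM against 155 and 132 FPKM (-0.54; 0.143 and 0.0161 in the same fits). In both genes the runs did not overlap. RPLP2 of the stalk had 1263 and 1213 FPKM in replicate 1 and 868 and 878 FPKM in replicate 2 (-0.50; 0.143 and 0.0242). Its partner RPLP1 had 1620 and 1585 FPKM against 1270 and 1230 FPKM (-0.36), lower in both replicate 2 libraries but with a limma adjusted p of 0.0588 with the group as a term.

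RPLP0, the base of the same stalk, had the opposite order, with 2390 and 2160 FPKM in replicate 1 and 2690 and 2369 FPKM in replicate 2, and its runs overlapped. The 3 stalk genes therefore did not move as a unit between the runs. RPS21 (-0.52) and RPL23 (0.33), a large subunit protein at the interface of the subunits, completed the ends of the list and passed in neither fit.

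The pattern over genes was alike in both groups. The replicate difference in the controls and that in the knockdown share no library but carry the same 2 replicate numbers. They had a Pearson correlation of 0.90 over the 80 genes and 0.65 over 12138 genes. The sign was the same in 62 of 80. GC content of the leading transcript, taken from GENCODE 29 for 79 of the 80 genes, moved with it. Its correlation with the replicate difference was -0.41 in the controls and -0.35 in the knockdown (-0.24 and -0.34 over 11429 genes). With the knockdown difference it was -0.10 in run 1 and 0.13 in run 2. Ribosomal protein genes at or below the median GC (n = 40) had median replicate differences of 0.18 and 0.06 in the 2 groups, and those above it (n = 39) had -0.06 and -0.12. The part of base composition in these differences was not tested.

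**Figure D4:**
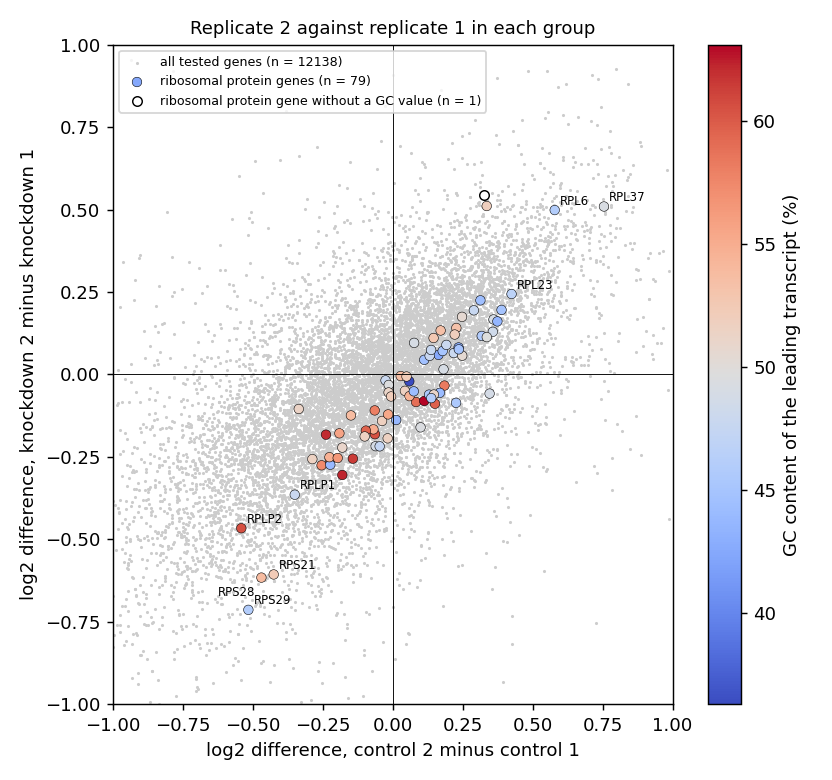
Log2 difference between replicate 2 and replicate 1 in the controls (x axis) and in the knockdown (y axis) for the ribosomal protein genes, coloured by GC content (%), and for all 12138 tested genes (grey), with both axes ending at 1 in each direction. The 80 genes spread along the diagonal (Pearson correlation 0.90), from RPS29 at -0.52 and -0.71 to RPL37 at 0.75 and 0.51.

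The tables list 405 transcripts of these genes, 391 of them protein-coding in GENCODE 29. Protein-coding transcripts held 98.9% and 98.7% of their FPKM in the control libraries and 99.0% and 98.5% in the knockdown (exact permutation p = 1). In 36 of the 80 genes 1 transcript held over 90% in every library. Among the largest differences between the groups in that share, RPLP2 had 85.9% and 97.2% in the controls and 82.7% and 89.9% in the knockdown, and RPL9 had 93.9% and 90.3% against 91.4% and 87.0%. RPL8 had 67.5% and 58.5% against 67.9% and 66.5%. RPS9 had 86.8% and 83.9% against 88.7% and 88.1%, and RPS27L had 79.1% and 77.1% against 76.2% and 74.2%. In RPS9 and RPS27L the groups did not overlap, by less than 3 percentage points at the nearest libraries.

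Genes tied to the ribosomal proteins by function were read from lists chosen with results of these data known. FAU, which encodes a ribosomal protein fused to a ubiquitin-like protein, had 509 and 540 FPKM in the control libraries and 481 and 480 FPKM in the knockdown libraries, so that the groups did not overlap. Of 16 other genes with known TOP messages, 14 had a log2 difference below 0, with a median of -0.08, and 0 were called in limma with or without the run. The most abundant were EEF1A1, elongation factor 1A, with 4273 and 4331 FPKM against 3919 and 4047 FPKM, GNB2L1, which encodes the small subunit protein RACK1, and HNRNPA1. GNB2L1 had 1584 and 1738 FPKM against 1646 and 1700 FPKM, and HNRNPA1 had 1524 and 1784 FPKM against 1418 and 1616 FPKM.

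The paralogs that the naming rule leaves out gave 1 called gene. RPL22L1, a copy of RPL22, had 128 and 214 FPKM in the control libraries and 63.9 and 120 FPKM in the knockdown libraries. Each knockdown library lay below the control of its run and also below both controls. Over both runs the log2 difference was -0.91, with a limma adjusted p of 0.777 and, with the run as a term, 0.00483. Over the other alternatives the limma adjusted p was 0.242 to 0.9999 for this difference. Within the runs it was -0.995 and -0.831. Its size moved with single libraries, to -0.55 without control replicate 2 and -0.46 without knockdown replicate 1, fits that also take in the difference between the runs. RPL22L1 was 1 of 4 such paralogs tested, and RPL7L1, RPL26L1 and RPL36AL were not called.

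Mitochondrial ribosomal proteins, which serve the separate ribosome of mitochondria, had a median log2 difference of -0.02 over 77 genes, 39 of them below 0. With the run as a term 2 of the 77 were called in limma, both lower, where 427 of all 12138 genes were called, 233 of them lower. MRPL37 had 59.2 and 66.0 FPKM in the control libraries and 28.34 and 28.04 FPKM in the knockdown libraries (a difference of -1.12 on the log2 scale). Its limma adjusted p was 0.261, or 0.00272 with the run as a term, against 0.0806 to 0.403 over the other alternatives. MRPS6 had 49.6 and 50.3 FPKM against 37.4 and 34.6 FPKM (-0.46; limma adjusted p 0.537, 0.0394 with the run as a term, 0.381 to 0.9999 otherwise). Neither gene's groups overlapped.

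Genes that act on the ribosomal proteins were called in neither fit of knockdown against control. Of 13 mTORC1 and TOP regulators 6 had a log2 difference below 0, with a median of 0.04, and LARP1 had 116 and 138 FPKM in the control libraries and 121 and 140 FPKM in the knockdown libraries. RHEB, the activator of mTORC1, had 127 and 131 FPKM against 108 and 123 FPKM, and EIF4E, the cap-binding protein, had 97.5 and 113 FPKM against 86.1 and 99.1 FPKM. Of 13 chaperones and importers of ribosomal proteins 7 lay below 0 (median -0.01). IPO7, an importer, had 129 and 127 FPKM against 120 and 128 FPKM. AAMP, on the list of chaperones, had 101 and 119 FPKM against 81.4 and 86.8 FPKM, and IPO5, another importer, had 73.0 and 93.1 FPKM against 73.4 and 91.2 FPKM. Of the checkpoint genes, MDM2, which RPL5 and RPL11 bind, had 61.8 and 67.7 FPKM against 54.0 and 61.0 FPKM. MDM4 had 34.8 and 22.1 FPKM against 27.9 and 27.4 FPKM.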

How the data were processed

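Each library has 1 table, deposited by the authors, that lists 81493 transcripts with 1 value apiece. The header names no unit, and the deposited values were read as FPKM from the values themselves. Bcl2fastq 2.19, HTSeq 0.8.0 and hg38 are named in the submitters' processing notes. The file coordinates are GRCh37, as a chromosome 4 locus ends at 191013719. The program that made the FPKM was not given in the sources used here. Transcript values were summed by gene ID. A count test was planned in case the tables held counts. They hold FPKM, so limma-trend (limma 3.58.1, R 4.3.3) was used on log2(FPKM + 1), a scale that understates changes of low genes. It was two-sided, over 12138 genes at or above 1 FPKM in 2 or more of the 4 libraries. Benjamini-Hochberg adjustment was made over all of them, with a threshold of 0.05. The fit was tried on simulated data with no difference between runs and with changes larger than the knockdown differences of the ribosomal protein genes. That trial does not show what the fit can detect in these data. No read totals are in the tables, so counting error is unknown. GENCODE 29 gave biotype, length and GC of transcripts, and RefSeq gave start sites.

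The members and the gene lists were chosen with earlier results of these data known. Named were the 6 highest and 6 lowest levels, every call, the 5 highest and 5 lowest differences in each comparison, the paralog pairs, the 5 largest differences in leading-transcript share and, of each list, the called genes or else the 3 most abundant. Other pseudocounts, filters, scalings and terms were tried, and each library was left out in turn. Some genes that these rules name are not reported here.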

Additional observations from a re-analysis of the deposited data

How the results depend on the processing

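No ribosomal protein gene was called for knockdown against control under any alternative run, and with the replicate number as a block (the run as a term) the count was again 0. The median log2 difference stayed between -0.14 and -0.06, with 55 to 76 genes below 0. For replicate 2 against 1, 7 genes were called with the group as a second term and 0 otherwise. The median of that comparison ran from -0.082 to 0.12 with single libraries left out, so it has no stable sign. The difference in summed share was -1.04 percentage points without mitochondrial genes in the denominator and ran from -1.36 to -0.895 with single libraries left out. With single libraries left out, the knockdown difference ran from -0.29 to 0.47 for RPL37, from -0.055 to 0.20 for RPL29, from -0.075 to 0.11 for RPS7 and from -0.25 to 0.46 for RPS29. Leaving out 1 library makes the replicate numbers unequal between the groups, so the replicate difference enters these values, by an amount that was not tested. Where 1 library is left out of a group, the lone library is assumed to vary like the other group. There are 2 libraries a group and no read totals, and what the replicate number marks cannot be told from them.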

Other observations

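The transcript makeup of 2 further genes is given as values, chosen after they were seen. RPL19, a large subunit protein, had a nearly constant gene total within each group (2266 and 2311 FPKM in the control libraries, 1983 and 1976 FPKM in the knockdown libraries), with both knockdown libraries below both controls. Its leading transcript held 86.2% and 88.3% of that total in the replicate 1 libraries of control and knockdown and 61.2% and 57.2% in the replicate 2 libraries. A second coding transcript took up the balance, with 280 and 205 FPKM in replicate 1 and 865 and 815 FPKM in replicate 2. The makeup of RPL19 therefore followed the run, while its total did not. RPS24, a small subunit protein with known splice forms, had a leading transcript at 87.0% and 86.4% in the controls and 84.3% and 84.0% in the knockdown. A second form had 321 and 429 FPKM in the control libraries and 413 and 463 FPKM in the knockdown libraries. The shares of RPS24 did not overlap between the groups, and no test across transcripts was run.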
